A study of Mus musculus with 18 samples.

Results

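The 46 genes described here are the transcription factor ATF4, its partners and feedback genes, and the amino acid transporters, amino acid and one-carbon enzymes and aminoacyl-tRNA synthetases that belong to the amino acid response. They were chosen by name from general knowledge of that response and not by a rule on a value, but with earlier results of these data known. All 46 were found among the 48440 gene rows of the count files, and all 46 were among the 13785 genes kept for testing. By role they comprised 11 regulators and feedback genes, 2 genes of secreted or surface proteins, 8 transporters, 7 serine and one-carbon enzymes, 6 other amino acid enzymes, and 12 genes of tRNA charging and tRNA export.

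When amino acids run short or unfolded protein builds up, kinases phosphorylate the initiation factor eIF2, general translation slows, and the Atf4 mRNA is translated more. ATF4 pairs with C/EBP proteins on a short element, the C/EBP-ATF response element, and activates genes that import, make and charge amino acids, together with genes such as Ddit3 and Trib3 that limit the response. ATF4 is controlled largely at the level of translation, so its mRNA is only one side of its activity.

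The RNA came from an SV40-immortalized dermal fibroblast line of newborn male 129/S6 mice, labelled as a double knockout of macroH2A1 and macroH2A2 that carries a doxycycline-inducible transgene for macroH2A2-GFP, a tagged histone H2A variant. Cells had no doxycycline (0h) or 0.5 ug/ml doxycycline for 6h or 24h, with 3 biological replicates at each time, sequenced as directional poly(A) libraries. Native ChIP-seq of the GFP tag covered 0h, 6h, 24h and also 5d, with a single library for each condition. A further 24h library had 0.5 uM flavopiridol, a CDK9 inhibitor, for its final 18 hours, and 2 more, of 6h and of 24h, had the EZH2 inhibitor GSK126 at 5 uM for 10 days beforehand. Another ChIP library profiled H2A.Z in untreated wild-type primary dermal fibroblasts. The macroH2A1/2 knockout and the transgene were common to all RNA groups, the labels used here name neither the transgene's promoter nor whether the line is a clone, and no library with doxycycline but without the transgene was analysed here, so effects of the drug and of macroH2A2-GFP cannot be told apart.

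RNA libraries held 29338093 to 37793178 counts over genes. The transgene's gene H2afy2 stood at 9.61 to 25.3 CPM (TMM-normalised counts scaled to library size) at 0h, 805 to 833 CPM at 6h and 1713 to 1741 CPM at 24h. H2afy, the macroH2A1 gene, had 51.5 to 60.6 CPM in the 9 libraries, and whether the deleted part of either gene is read by these counts was not tested. Of 10 fibroblast markers, Col1a1, Col1a2, Col3a1, Pdgfra, Pdgfrb, Thy1, S100a4 and Vim were above 10 CPM at every time, while Dcn was below 2 CPM and Lum near 0. Krt5, Krt1, Adgre1, Dct, Sox10 and Myod1 had a level of 0 CPM at every time, and the listed endothelial and adipocyte markers were below 1 CPM. Among other keratinocyte, immune and melanocyte markers, Krt10 averaged 5.43, 5.77 and 6.19 CPM and Cd68 2.24, 2.08 and 2.47 CPM at 0h, 6h and 24h, above Dcn, while Krt14, Ptprc, Pmel and Mlana were below 1 CPM.

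A script searched the RefSeq GRCm38.p6 promoter windows, which run from 250 bases before to 50 after a start, for the core of the C/EBP-ATF response element, TGATGNAA, on both strands. Of the 38 genes with a window, 14 (36.8%) held a match, against 4.51% of all 27025 genes in the table. The stricter word TGATGCAA, whose matches are all matches of the first word too, was found in 11 of 38 (28.9%), against 1.03% of all genes. The genes were listed for their known place in this response, so these shares describe the list, and a match does not show that a factor was bound. The stretches below are shown because they belong to the cystine transporter Slc7a11, to feedback genes, to enzymes and to a tRNA synthetase. Each is on the gene's own strand, 5′ to 3′, with the match in capitals, and a match on the other strand reads as the reverse complement, such as TTGCATCA or TTACATCA.
Slc7a11, chr3:50443642-50443690, minus strand, 2 matches facing each other: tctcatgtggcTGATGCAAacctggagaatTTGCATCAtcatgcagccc
Chac1, chr2:119351038-119351067, plus strand: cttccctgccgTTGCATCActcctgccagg
Trib3, chr2:152344028-152344057, minus strand: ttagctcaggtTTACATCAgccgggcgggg
Nupr1, chr7:126625562-126625591, minus strand: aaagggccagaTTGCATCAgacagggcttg
Asns, chr6:7693214-7693243, minus strand: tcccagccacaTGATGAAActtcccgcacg
Got1, chr19:43524689-43524718, minus strand: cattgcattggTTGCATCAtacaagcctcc
Pycr1, chr11:120643833-120643862, minus strand: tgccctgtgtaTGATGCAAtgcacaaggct
Tars, chr15:11399655-11399684, minus strand: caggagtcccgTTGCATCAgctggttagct
The pair in Slc7a11 began 66 and 47 bases before the start. The matches of Chac1, Nupr1, Got1 and Pycr1 began 193, 110, 102 and 103 bases before it. Those of Asns and Tars lay 23 and 15 bases before it, and that of Trib3 15 bases after it. Slc1a4, Vldlr, Gars, Iars and Yars also held a match, and Aars held one 112 bases before the start and another 10 bases after it. Eif4ebp1, Slc7a5, Slc1a5, Aldh1l2, Cth, Nars, Wars and Lars had no entry in the table.

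The comparison of 6h with 0h asks how the genes stood soon after macroH2A2-GFP was switched on. Most of the amino acid response rose by a small amount. Of the 46 genes, 32 (69.6%) were higher at 6h than at 0h at an adjusted p under 0.05, 2 (4.35%) were lower and 12 did not pass, with edgeR's quasi-likelihood test and Benjamini-Hochberg adjustment over all genes tested. Among all 13785 genes, 20.8% were called higher and 18.2% lower, and among the 8866 genes that averaged 10 CPM or more, a level that 45 of the 46 reached, the shares were 28.7% and 23.2%. The median log2 change of the 46 genes was 0.14, with a range of -0.36 to 0.64, against a median of 0.01 over all genes. Only 5 of the 46 rose by 1.25-fold or more and 1 by 1.5-fold or more. These values come from bulk RNA, in which fewer cells of a kind and less RNA per cell cannot be told apart.

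**Figure D1:**
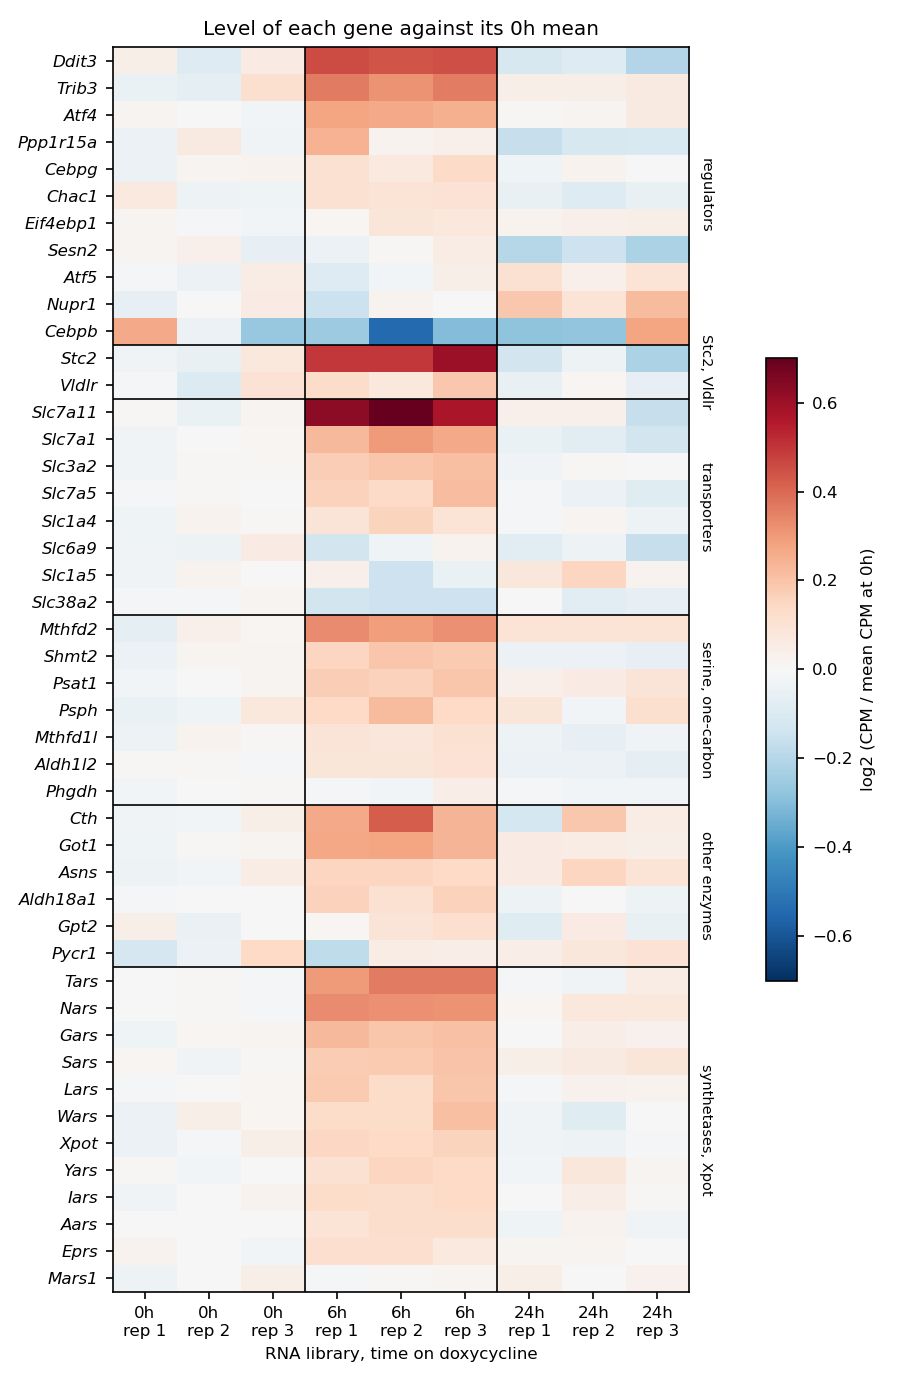
Heat map of the 46 genes (rows, in role groups, ordered by log2 change at 6h) in the 9 RNA libraries (columns). Colour is log2 of the CPM over the gene's mean CPM at 0h. The 3 libraries at 6h form a warm band in most rows, deepest for Slc7a11, Stc2 and Ddit3, while Cebpb differs between replicates at every time.

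Among the regulators, Atf4 itself (chr15:80255184-80257545) had 342, 337 and 333 CPM at 0h, 408, 405 and 401 CPM at 6h, and 339, 341 and 352 CPM at 24h. Every 6h library lay above every library of the other times, which overlapped each other. Its log2 change at 6h was 0.26 ± 0.024 (SE, adjusted p = 9.6e-10). Ddit3 (chr10:127290793-127296291), which encodes the stress factor CHOP, had 14.9, 13.6 and 15.1 CPM at 0h, 19.9, 19.7 and 19.8 CPM at 6h, and 13.4, 13.6 and 12.6 CPM at 24h. The 6h replicates were nearly identical and stood apart from the rest. The log2 change of Ddit3 was 0.45 ± 0.059 (SE, adjusted p = 5.7e-07), a rise exceeded by 572 of the 13785 genes.

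Trib3, a pseudokinase that binds ATF4 and restrains it, had 23.1, 22.8 and 25.8 CPM at 0h, 30.8, 29.7 and 30.6 CPM at 6h, and 24.6, 24.6 and 25.0 CPM at 24h. All 6h values were above the others, and the 24h values fell within the range at 0h. The rise at 6h was 0.35 ± 0.050 on the log2 scale (SE, adjusted p = 1.8e-06). Cebpg, whose product pairs with ATF4 on the response element, rose by 0.10 (adjusted p = 0.0123), and this call was lost without 0h replicate 1 or 6h replicate 3, with adjusted p values up to 0.0866.

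Cebpb, another partner of ATF4, was the regulator called lower at 6h. It had 33.6, 27.2 and 23.3 CPM at 0h, 23.5, 19.2 and 22.7 CPM at 6h, and 23.0, 23.1 and 33.9 CPM at 24h. The 6h and 0h ranges overlapped, and single libraries at 0h and 24h were much higher than their replicates. Its log2 change of -0.36 ± 0.110 (SE, adjusted p = 0.0101) was lost with DESeq2 (adjusted p = 0.181) and without 0h replicate 1 or 6h replicate 2.

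Atf5, a factor related to ATF4 and translated in a like manner, had 68.5, 67.1 and 71.6 CPM at 0h, 65.0, 68.2 and 71.0 CPM at 6h, and 74.4, 70.8 and 73.8 CPM at 24h. Its 6h and 0h values overlapped, and the log2 difference of -0.02 did not pass (adjusted p = 0.646). Chac1, a glutathione-degrading enzyme often used as a readout of ATF4, had 31.3, 29.1 and 29.2 CPM at 0h, 32.1, 31.8 and 32 CPM at 6h, and 28.7, 28.0 and 28.8 CPM at 24h. Each 6h value was above each 0h value, but the log2 difference of 0.10 ± 0.044 (SE) had an adjusted p of 0.0762. The remaining regulators that did not pass at 6h were Ppp1r15a, a phosphatase subunit that reverses eIF2 phosphorylation (log2 0.11, adjusted p = 0.0769), Eif4ebp1, a translation repressor (0.06, adjusted p = 0.0765), Sesn2, an inhibitor of mTORC1 signalling (0.00, adjusted p = 0.958), and Nupr1, a small stress-induced nuclear protein (-0.04, adjusted p = 0.57). Of the 11 regulators, 4 (36.4%) therefore rose, 1 (9.09%) fell and 6 did not pass, with a median log2 change of 0.10. Among genes of 10 CPM or more 28.7% rose and 23.2% fell, so the share of regulators that rose was not far from that background.

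The 2 genes of secreted or surface proteins both rose. Stc2, a secreted glycoprotein of the stress response, had 7.58, 7.45 and 8.13 CPM at 0h, 10.9, 10.9 and 11.7 CPM at 6h, and 7.06, 7.53 and 6.62 CPM at 24h. The 6h libraries were clear of both other times. Its log2 change at 6h was 0.53 ± 0.078 (SE, adjusted p = 3.3e-06). Vldlr, a lipoprotein receptor, had 34.8, 32.7 and 37.6 CPM at 0h, 38.3, 36.8 and 39.9 CPM at 6h, and 33.7, 35.3 and 33.6 CPM at 24h. Its 6h and 0h ranges overlapped, and the log2 change of 0.13 (adjusted p = 0.031) had an adjusted p of up to 0.222 under the alternatives, with 5 of them losing the call.

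Among the transporters, 5 of 8 rose, 1 fell and 2 did not pass. Slc7a11 (chr3:50364936-50499087), the cystine and glutamate exchanger that supplies cysteine for glutathione, had 16.4, 15.8 and 16.5 CPM at 0h, 25.2, 26.6 and 24.2 CPM at 6h, and 16.7, 16.7 and 14.6 CPM at 24h. Every 6h library was far above all others, and 24h overlapped 0h. At 0.64 ± 0.058 (SE, adjusted p = 6.5e-10), or 1.56-fold, it had the largest log2 change of the 46 genes in the stranded counts, and 262 of all genes tested rose more. With unstranded counts its log2 change was 0.46 (adjusted p = 1.1e-08), below the 0.52 of Stc2, and the cause was not tested. Slc7a1, a cationic amino acid transporter, rose by 0.27 on the log2 scale. Slc3a2, the heavy chain that partners both Slc7a11 and Slc7a5, rose by 0.19, and Slc7a5, the light chain for leucine and other large neutral amino acids, by 0.17. Slc1a4, a carrier of alanine, serine and cysteine, rose by 0.11, a call lost without 6h replicate 2 (adjusted p = 0.0564).

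Slc38a2, the sodium-coupled neutral amino acid transporter SNAT2, went the other way. It had 982, 983 and 1003 CPM at 0h, 903, 895 and 894 CPM at 6h, and 987, 941 and 949 CPM at 24h. The 6h libraries lay below all others, and the log2 change was -0.14 ± 0.023 (SE, adjusted p = 2e-05). The glutamine carrier Slc1a5 (log2 -0.05, adjusted p = 0.607) and the glycine transporter Slc6a9 (-0.05, adjusted p = 0.43) did not pass.

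**Figure D2:**
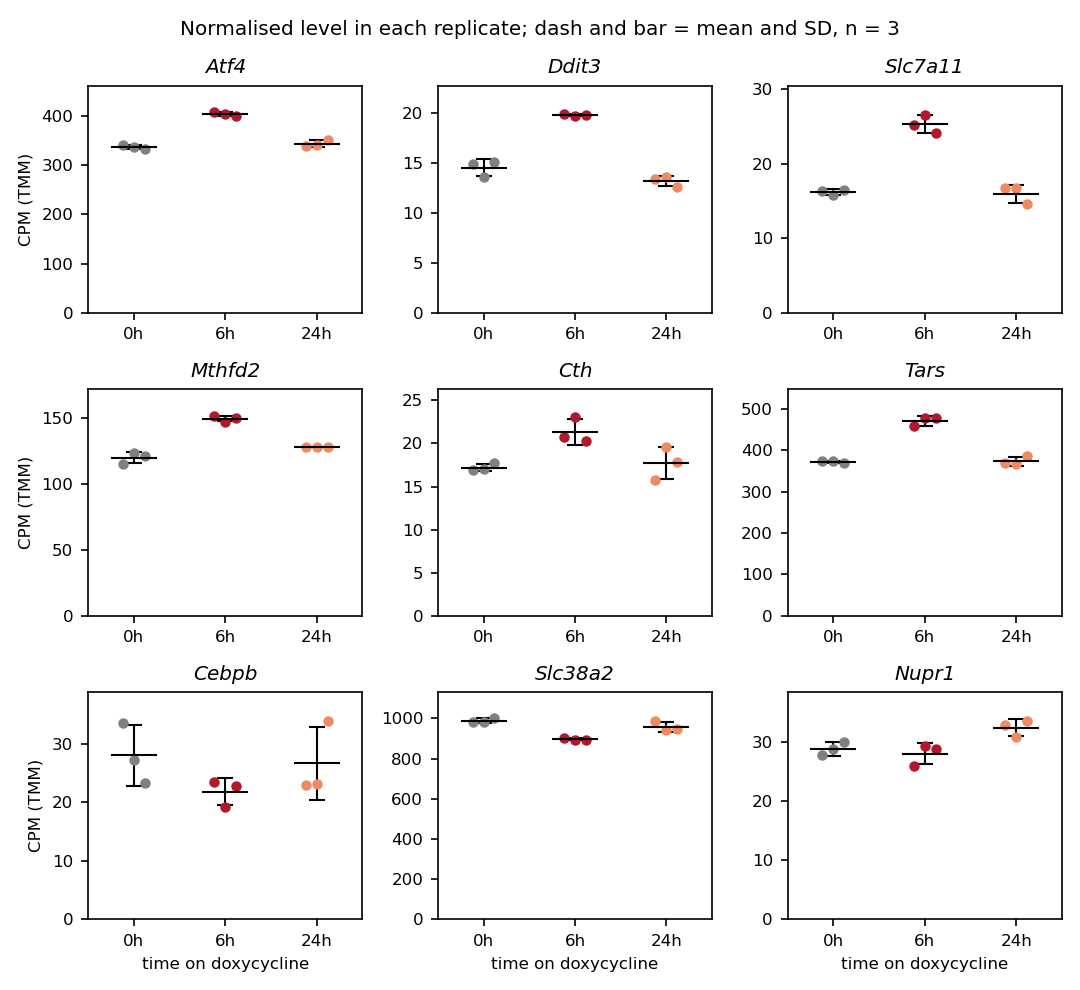
Level of 9 of the genes in each RNA replicate (points) as TMM-normalised CPM on axes that start at 0, by time on doxycycline, with the mean and SD of 3 replicates (dash and bar). Atf4, Ddit3, Slc7a11, Mthfd2, Cth and Tars have their 3 highest values at 6h, Slc38a2 its 3 lowest at 6h, and Cebpb overlaps between times.

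Of the 7 serine and one-carbon enzymes, 6 rose and none fell. Mthfd2 (chr6:83305704-83326011), the mitochondrial methylenetetrahydrofolate dehydrogenase, had 115, 123 and 121 CPM at 0h, 151, 147 and 150 CPM at 6h, and 128, 128 and 128 CPM at 24h. The 6h libraries were highest and the 24h libraries sat between the other times, above each 0h value. The log2 change at 6h was 0.32 ± 0.029 (SE, adjusted p = 6.4e-10). Shmt2, the mitochondrial serine hydroxymethyltransferase, rose by 0.18. Psat1 and Psph, which carry out the later steps of serine synthesis, each rose by 0.17, and the mitochondrial folate enzymes Mthfd1l and Aldh1l2 by 0.09 and 0.08. Without 6h replicate 3, Aldh1l2 had an adjusted p of 0.0662. Phgdh, the first enzyme of serine synthesis, had 146, 148 and 149 CPM at 0h, 147, 146 and 153 CPM at 6h, and 147, 146 and 146 CPM at 24h. Its times overlapped, and the log2 difference of 0.01 at 6h did not pass (adjusted p = 0.833).

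Of the 6 other amino acid enzymes, 4 rose and 2 did not pass. Cth, the cystathionine gamma-lyase that makes cysteine, had 16.9, 17 and 17.7 CPM at 0h, 20.7, 23.1 and 20.3 CPM at 6h, and 15.8, 19.6 and 17.8 CPM at 24h. All 6h values were above all others, while the 24h values spread around those at 0h. Its log2 change was 0.32 ± 0.066 (SE, adjusted p = 0.00034). Asns, asparagine synthetase, had 90.6, 91.5 and 96.1 CPM at 0h, 103, 103 and 102 CPM at 6h, and 96.5, 103 and 99 CPM at 24h. The 6h and 24h libraries were all above those at 0h, and the log2 change at 6h was 0.14 ± 0.031 (SE, adjusted p = 0.00048). Got1, the cytosolic aspartate aminotransferase, rose by 0.26, and Aldh18a1, which starts proline synthesis, by 0.14.

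Pycr1, the last enzyme of proline synthesis, had 17.4, 18.4 and 20.8 CPM at 0h, 16.7, 19.6 and 19.5 CPM at 6h, and 19.5, 20.0 and 20.3 CPM at 24h. Its replicates spread more than its times differed, and the log2 difference of -0.02 at 6h did not pass (adjusted p = 0.811). Gpt2, the mitochondrial alanine aminotransferase, did not pass either (log2 0.07, adjusted p = 0.112).

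Of the 12 genes of tRNA charging and export, 11 were higher at 6h and none was lower, with a median log2 change of 0.15. Tars (chr15:11383663-11399658), threonyl-tRNA synthetase, had 373, 374 and 370 CPM at 0h, 458, 478 and 478 CPM at 6h, and 369, 366 and 385 CPM at 24h. Nars (chr18:64499655-64516515), asparaginyl-tRNA synthetase, had 575, 576 and 569 CPM at 0h, 720, 716 and 712 CPM at 6h, and 579, 602 and 604 CPM at 24h. In both, the 6h libraries stood apart from the other times by several times the spread within a time. The log2 changes at 6h were 0.34 ± 0.025 for Tars (SE, adjusted p = 1.4e-11) and 0.32 ± 0.023 for Nars (SE, adjusted p = 6.7e-12).

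The 9 others that rose were the synthetase genes Gars, Sars, Lars, Wars, Yars, Iars, Aars and Eprs, and Xpot, the exporter of tRNA from the nucleus, with log2 changes between 0.10 for Eprs and 0.21 for Gars. Mars1, methionyl-tRNA synthetase, had 203, 208 and 214 CPM at 0h, 207, 209 and 211 CPM at 6h, and 214, 208 and 212 CPM at 24h. Its times overlapped entirely, and the log2 difference at 6h was 0.00 (adjusted p = 0.934).

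Set beside the promoter matches, 11 of the 14 genes with a TGATGNAA match rose at 6h, none fell and 3 did not pass, with a median log2 change of 0.13. Of the 24 genes with a window but no match, 15 rose, 2 fell and 7 did not pass, with a median of 0.12. Chac1, Nupr1 and Pycr1, whose stretches are printed above, were the 3 genes with a match that did not pass. Slc7a11, with its pair of matches, rose by 0.64, but Aars, which also held 2, rose by 0.11. Stc2 and Ddit3 had a window and no match, and rose by 0.53 and 0.45. Of the 8 genes without a window, 6 rose, none fell and 2 did not pass, with a median of 0.16. These are descriptions of the list, and no test was made of the difference.

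The comparison of 24h with 0h asks whether the genes still differed a day after doxycycline. Of the 46 genes, 3 (6.52%) were higher at 24h than at 0h, 1 (2.17%) was lower and 42 did not pass. Over all genes, 4.17% were called higher and 2.87% lower, and among genes of 10 CPM or more 6.05% and 4.29%, so the share among the 46 genes was near the background in both directions. The median log2 change was 0.00, with a range of -0.19 to 0.17. This comparison shares its 0h libraries with that at 6h.

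The 3 called higher at 24h were Nupr1 (log2 0.17, adjusted p = 0.0341), Mthfd2 (0.10, adjusted p = 0.0358) and Asns (0.10, adjusted p = 0.0465). Nupr1 had 32.8, 30.8 and 33.6 CPM at 24h, against 27.7, 28.7 and 30.0 CPM at 0h. All 3 calls were lost with DESeq2, with adjusted p values of 0.0844, 0.0583 and 0.0946 in the same order, and also without 0h replicate 1 or 24h replicate 3. In total the call of Asns was lost under 11 alternatives, with adjusted p values up to 0.226, that of Nupr1 under 5 and that of Mthfd2 under 4. Sesn2 was the gene called lower, with 39.5, 41.1 and 38.9 CPM at 24h, against 46, 46.6 and 43.6 CPM at 0h. Its 24h libraries lay below all others, and its log2 change of -0.19 ± 0.040 (SE, adjusted p = 0.00274) passed under every alternative run, with adjusted p values up to 0.0305. Nupr1 and Sesn2 are given by library because they were among the few called at 24h, a choice made with their values known.

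The direct comparison of 24h with 6h asks how the genes moved between the 2 times on doxycycline, and shares the 6h libraries with the first comparison. Of the 46 genes, 35 (76.1%) were lower at 24h than at 6h, 4 (8.70%) were higher and 7 did not pass, and the median log2 change was -0.15. Over all genes 18.8% were called lower and 17.4% higher, and among genes of 10 CPM or more 25.6% and 21.9%. In the stranded counts the largest falls were in Slc7a11 (-0.66 ± 0.058, SE, adjusted p = 4.2e-10), Stc2 (-0.66 ± 0.080, SE, adjusted p = 1.5e-07) and Ddit3 (-0.59 ± 0.060, SE, adjusted p = 8.7e-09). With unstranded counts Slc7a11 fell by 0.30 (adjusted p = 1e-05), less than Stc2 and Ddit3, which fell by 0.65 and 0.55. Trib3 fell by 0.30, Atf4 by 0.23, Tars by 0.34, Nars by 0.27 and Cth by 0.28 on the log2 scale.

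By role, 7 of 11 regulators, 5 of 8 transporters, 6 of 7 serine and one-carbon enzymes, 4 of 6 other enzymes, 11 of 12 genes of tRNA charging and export, and both Stc2 and Vldlr were lower at 24h than at 6h. Of the genes that had not passed at 6h, Chac1 (log2 -0.17, adjusted p = 0.00405), Ppp1r15a (-0.24, adjusted p = 0.00037), Sesn2 (-0.19, adjusted p = 0.00036) and Gpt2 (-0.10, adjusted p = 0.0284) fell between these times. The call for Gpt2 was lost under 5 alternatives, DESeq2 among them, with adjusted p values up to 0.2, and that for Psph, which also fell by 0.10, under 7, with values up to 0.325. The 4 genes that were higher at 24h than at 6h were Cebpb (0.29, adjusted p = 0.0445), Nupr1 (0.22, adjusted p = 0.00141), Atf5 (0.10, adjusted p = 0.0228) and Slc38a2 (0.10, adjusted p = 0.00179). The call for Atf5 was lost with unstranded counts and without 6h replicate 1 or 24h replicate 1 or 3. That for Cebpb was lost under 5 alternatives, with adjusted p values up to 0.566. These were DESeq2 (adjusted p = 0.318) and leaving out 0h replicate 2, 6h replicate 2, 6h replicate 3 or 24h replicate 3. Asns did not pass (-0.04, adjusted p = 0.309), and neither did Mars1, Phgdh, Eif4ebp1, Slc6a9, Slc1a5 and Pycr1.

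**Figure D3:**
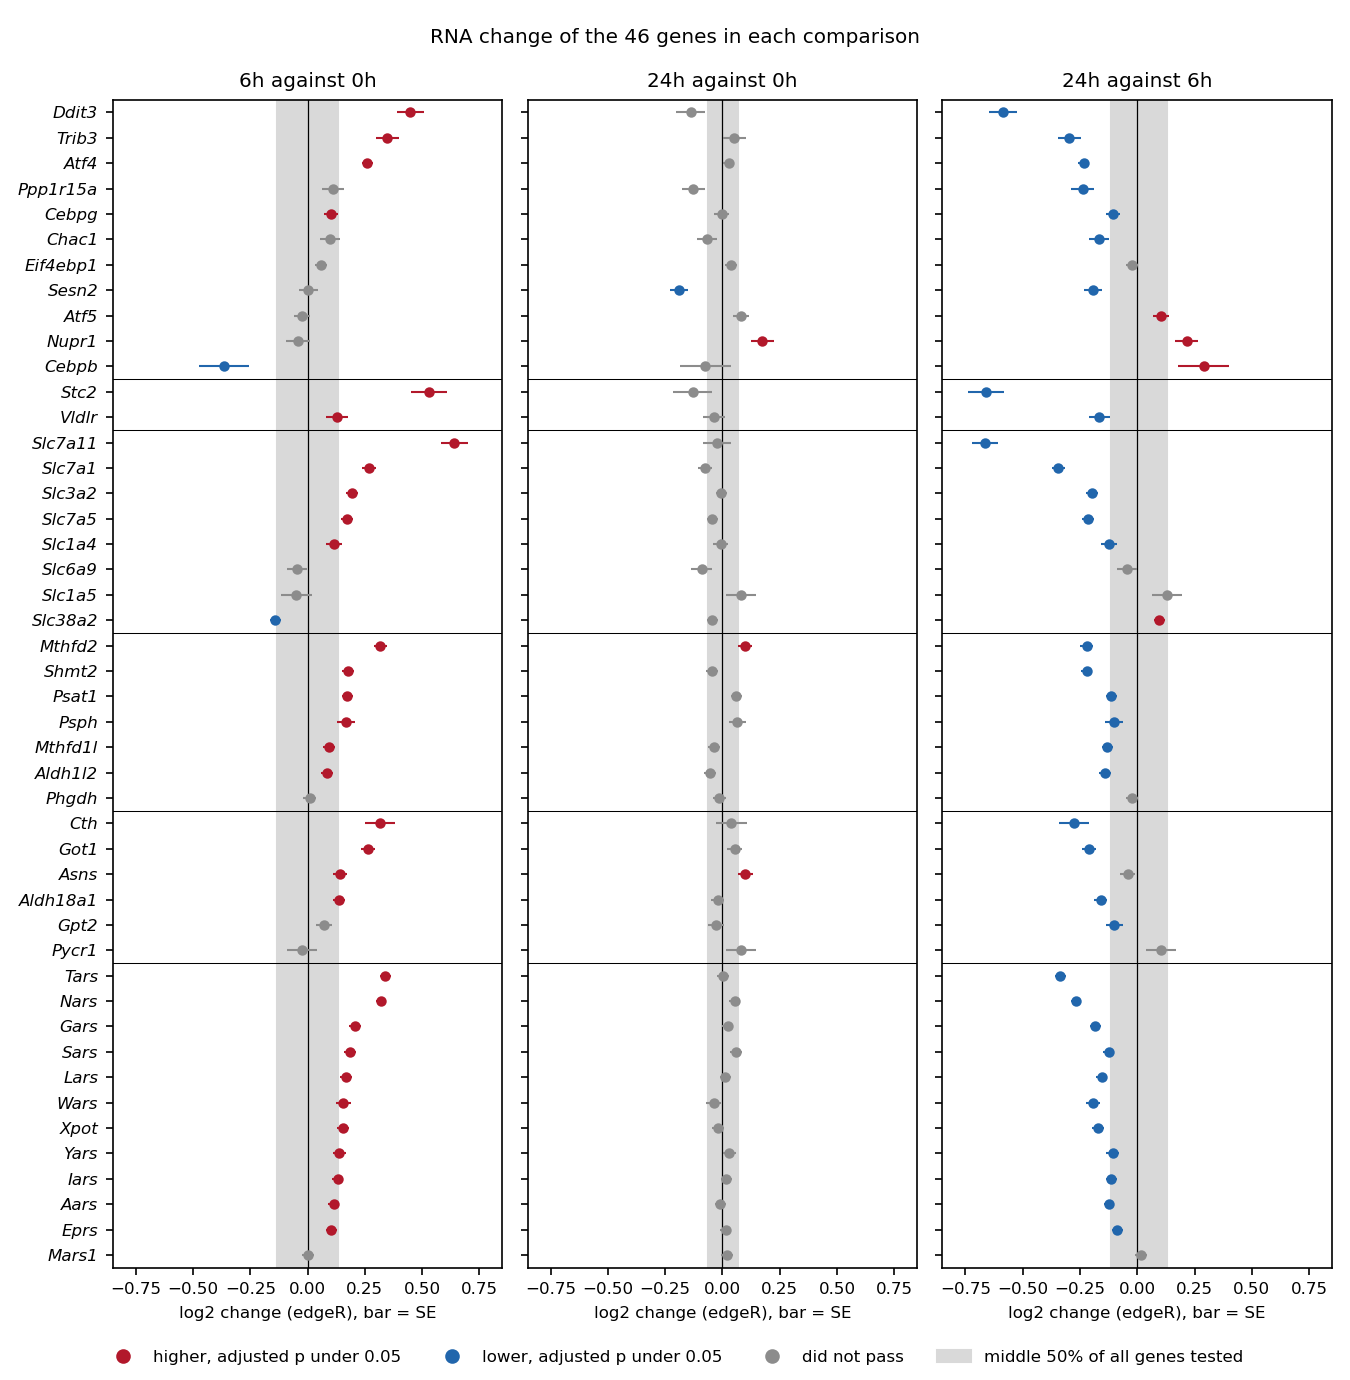
Log2 change of each of the 46 genes (rows, in role groups) with its SE in the 3 comparisons, from the edgeR fit over all 9 libraries. Red and blue points passed an adjusted p under 0.05, grey points did not, and the grey band holds the middle 50% of all 13785 genes. At 6h against 0h 32 points are red, at 24h against 0h 3, and at 24h against 6h 35 are blue.

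Neighbouring genes of the pathway were taken from lists by name, and their counts at 6h stand against the 28.7% higher and 23.2% lower among all genes of 10 CPM or more. The lists themselves were not held to that level. Slc7a3, Slc38a4, Slc43a2, Ears2, Fars2, Pars2 and Atf3 averaged less than 10 CPM at each time. Among all genes tested the shares were 20.8% and 18.2%. Upstream of ATF4, the 4 eIF2 kinase genes Eif2ak1, Eif2ak2, Eif2ak3 and Eif2ak4 did not pass at 6h, with log2 differences between -0.08 and 0.07. In the list of kinases, eIF2 and its exchange factor eIF2B, 5 of 15 (33.3%) rose and 2 (13.3%) fell at 6h, so the share that rose was near that background. Eif2b3, a subunit of the exchange factor, rose by 0.49 (adjusted p = 1.8e-11), and the eIF2 subunits Eif2s1 and Eif2s2 by 0.29 and 0.22. At 24h against 0h only Eif2s1 of the 15 was called, with a log2 change of 0.10 (adjusted p = 0.0274). This share, 6.67% higher, was near the 6.05% among genes of 10 CPM or more.

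Of 12 further cytosolic synthetases and scaffold proteins of the multisynthetase complex, 9 (75%) rose at 6h and none fell, among them Farsb (log2 0.40), Eef1e1 (0.45) and Rars (0.24). At 24h against 6h 10 of these 12 (83.3%) fell, beside 25.6% of genes of 10 CPM or more, with Farsb at -0.33 and Eef1e1 at -0.35. Of 17 mitochondrial synthetases, 5 (29.4%) rose and 2 (11.8%) fell at 6h. The share that rose was near the 28.7% of genes of 10 CPM or more and above the 20.8% of all genes tested. Nars2 rose by 0.35 and Rars2 by 0.24, while Vars2 fell by 0.18. In the list of other folate enzymes and mitochondrial carriers, 5 of 9 tested (55.6%) rose and 1 (11.1%) fell at 6h, among them Shmt1 (0.45) and Slc25a32 (0.27).

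Of 10 tested amino acid transporters outside the 46 genes, 3 (30%) rose and 3 (30%) fell at 6h. The shares were 28.7% and 23.2% among genes of 10 CPM or more, and 20.8% and 18.2% among all genes tested. Slc1a3, a glutamate transporter, fell by 0.95 (adjusted p = 1.7e-10) and Slc38a4 by 0.83 (adjusted p = 3.6e-06), while Slc7a6 rose by 0.15. At 24h against 6h Slc1a3 and Slc38a4 were higher by 0.72 and 0.89. Among 12 other ATF4 partners and stress regulators, 3 (25%) rose and 5 (41.7%) fell at 6h. Xbp1 and Atf6, factors of the unfolded protein response, rose by 0.33 and 0.25, and Sesn1, a relative of Sesn2, fell by 0.29. Atf3 and Herpud1, both inducible by stress in the endoplasmic reticulum, did not pass, with log2 differences of 0.06 and 0.00.

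Coverage by macroH2A2 was read for the 43 of the 46 genes that are 3 kb or longer, as the percent of the gene body, less 1 kb at each end, that lay inside the authors' SICER regions. Atf4, Nupr1 and Cebpb are shorter and have no value. With 1 library per condition there is no test. The bodies of these genes were mostly outside the regions at every time. The number with 50% or more coverage was 0 at 0h, 1 at 6h, 0 at 24h and 0 at 5d. It was 0 at 24h with flavopiridol, 2 at 6h with GSK126 and 0 at 24h with GSK126. Over all 18415 protein-coding genes of that length, the share covered was 3.56% at 0h, 12.9% at 6h, 9.28% at 24h and 7.03% at 5d. It was 13.0% at 24h with flavopiridol, 14.2% at 6h with GSK126 and 6.23% at 24h with GSK126. Among the 8403 of them with 10 CPM or more at 0h, a level that 42 of the 43 reached, it was 0.309% at 0h, 15.3% at 6h, 0.976% at 24h and 0.452% at 5d. It was 7.43% at 24h with flavopiridol, 20.3% at 6h with GSK126 and 0.678% at 24h with GSK126.

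The mean coverage of the 43 genes was 0.255% at 0h, 8.55% at 6h, 0.657% at 24h and 0.386% at 5d, against 0.936%, 20.1%, 2.26% and 1.17% for the genes of 10 CPM or more. It was 8.13% at 24h with flavopiridol, 7.74% at 6h with GSK126 and 0.943% at 24h with GSK126, against 10.6%, 24.2% and 1.86%. The number of the 43 with any coverage was 1 at 0h, 18 at 6h, 4 at 24h and 2 at 5d, beside shares of 7.00%, 57.1%, 13.1% and 8.09% among the genes of 10 CPM or more. It was 13 at 24h with flavopiridol, 18 at 6h with GSK126 and 4 at 24h with GSK126, beside 34.7%, 64.2% and 13.0%. In each of the 7 libraries the mean of the 43 genes was below that of the expressed genes as a whole. Those expressed genes were not matched to the 43 in RNA level, and the part that level plays in this difference was not tested.

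Eif4ebp1 was the gene past 50% at 6h, with 64.5% of its body in regions, and it had 36.0% at 24h with flavopiridol, 15.0% at 6h with GSK126 and 0 at 0h, 24h, 5d and 24h with GSK126. Aars had 10.9% at 0h, 49.7% at 6h, 16.4% at 24h and 12.5% at 5d, with 17.1% at 24h with flavopiridol, 70.7% at 6h with GSK126 and 17.1% at 24h with GSK126. It was the only one of the 43 genes with a region at 0h. Tars had 37.2% at 6h and 51.0% at 6h with GSK126, and no coverage at 0h, 24h, 5d or the other treated libraries. Slc7a11 had no coverage at 0h, 6.81% at 6h, 5.30% at 24h and 4.09% at 5d. Its value was 1.97% at 24h with flavopiridol, 5.90% at 6h with GSK126 and 6.81% at 24h with GSK126. Its RefSeq body reaches well beyond the start whose promoter is printed above, so the value covers a longer span than the transcript from that start.

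Region numbers in the deposited lists skip some values, mostly on chromosomes 8, 15 and 17, and coverage was computed from the regions listed. In the macroH2A2 libraries a number was skipped between the listed regions around Eif4ebp1 and Mthfd1l at 6h, and Aars and Xpot at 6h with GSK126. The same held for Aars, Tars, Slc7a5 and Aldh18a1 at 0h, Tars at 24h with flavopiridol, and Tars and Slc7a5 at 24h with GSK126. Those values may be too low. The nearest listed region was up to 27.5 kb away (Aldh18a1 at 0h), so where a skipped region lay is not known. Atf4, which has no coverage value, also had a number skipped around it at 6h.

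**Figure D4:**
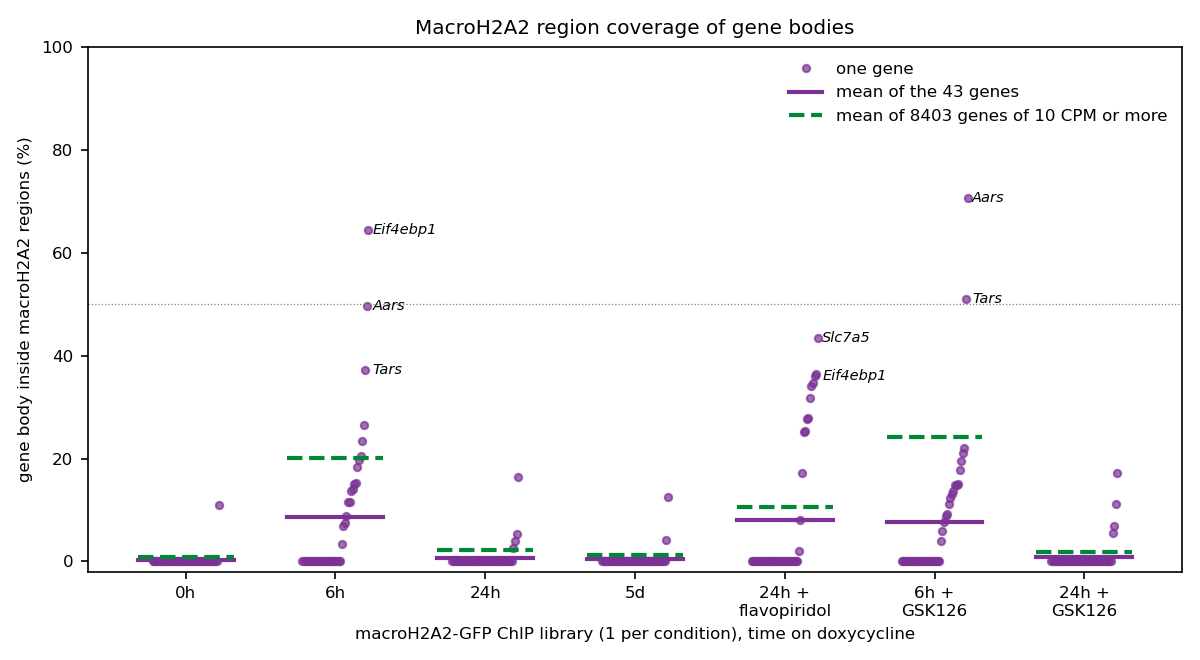
Percent of the gene body inside macroH2A2-GFP regions for 43 of the genes (points) in the 7 macroH2A2 libraries, with their mean (solid line) and the mean of 8403 genes of 10 CPM or more (dashed line). Most points are at 0, and in each library the mean of the 43 genes is below that of the expressed genes.

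Within 500 bases of an annotated start, the number of the 38 genes with a macroH2A2 region was 0 at 0h, 4 at 6h, 1 at 24h and 0 at 5d, beside 3.17%, 18.1%, 7.40% and 3.48% of the genes of 10 CPM or more. It was 3 at 24h with flavopiridol, 5 at 6h with GSK126 and 0 at 24h with GSK126, beside 9.96%, 19.1% and 5.92%. H2A.Z, a variant found at the starts of active genes, had a region there in the wild-type primary fibroblasts for 30 of the 38 genes. The share was 93.8% of the genes of 10 CPM or more and 59.8% of all genes with a start in the table. The 8 without one were Atf5, Ddit3, Nupr1, Cebpb, Cebpg, Ppp1r15a, Aars and Eprs, of which 6 are regulators. The start windows were added after the coverage values were seen, and the primary cells differ from the line in sex, genotype and immortalization.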

How the data were processed

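The authors deposited, for each RNA library, counts per gene as raw read counts without normalization, aligned with STAR 2.5.2b to GRCm38.p4 per the submitters' processing notes; stranded column 4 was used, which held 96.6% to 96.9% of stranded counts. Between 21.2% and 23.1% of reads were not counted to a gene, and reads from near-identical copies may be among them. ChIP reads were aligned with Bowtie 1.1.2 and regions called with SICER 1.1 per the submitters' processing notes. The deposited region lists hold a whole-number score per region and another column, a running number. The calls used had 200-base windows and gaps of up to 800 bases. The input library was not used here.

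The quasi-likelihood model of edgeR 4.0.16 (under R 4.3.3), with filterByExpr and TMM and with time as the sole factor, was fitted to the 9 RNA libraries and 13785 genes. Genes with a Benjamini-Hochberg adjusted p under 0.05 were called. The biological coefficient of variation was 2.69%, and p-values measure the spread between these replicates. On simulated counts for 6h against 0h over 13785 genes, 78% of 50 genes changed 1.25-fold and 96% of 50 changed 1.5-fold were recovered, and 2.09% of calls were false. The labels do not say whether replicate numbers pair the libraries, and the main fit did not pair them. ChIP values have 1 library per condition, and their depth is unknown.

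The genes and lists were chosen with earlier results of these data known. Values by library were given for genes called at 6h with a log2 change of 0.3 or more in size, called at 24h with 0.2 or more, for Atf4, Atf5, Ddit3, Trib3, Chac1 and Asns, and for the first and last gene of each role at 6h. From each further list, up to 3 genes with the smallest p were named, apart from an item not reported here; the kinases, Atf3 and Herpud1 were added after their values were seen, as was the background of genes of 10 CPM or more in RNA. Alternatives were RLE scaling, no filter on low counts, DESeq2, unstranded counts, a replicate block, only the 6 libraries of a comparison, leaving out each library, and other coverage and motif rules. Mars1 was matched by its older symbol. Coordinates and promoters are those of RefSeq GRCm38.p6.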

Additional observations from a re-analysis of the deposited data

How the results depend on the processing

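No direction among the 46 genes reversed where a call was made, under any RNA alternative run. At 6h against 0h the number of the 46 called higher lay between 29 and 33 when 1 library was left out, and at 24h against 6h the number called lower between 31 and 35. The number called lower at 6h was 1 with DESeq2 and 1 to 2 when a library was left out, since the call of Cebpb was lost. At 24h against 0h the number called higher was 0 with DESeq2, where 6 had an unadjusted p under 0.05 and edgeR called 3, and 0 to 3 when a library was left out; the number called lower was 1 to 2. At 24h against 6h the number called higher was 2 to 4 when a library was left out. Over all genes, 971 were called at 24h against 0h and 553 to 1148 when a library was left out. With a replicate block 5435, 1027 and 5036 genes were called at 6h against 0h, 24h against 0h and 24h against 6h, and no call among the 46 genes changed. The cause of these shifts was not tested.

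Where covered meant 80% or more of the body, 0 genes were covered at 6h and 0 at 6h with GSK126, and the same counts of 0 and 0 came from regions at or above the median score. Where it meant 20% or more, a looser rule, 6 were covered at 6h, 10 at 24h with flavopiridol and 4 at 6h with GSK126. H2A.Z regions covered 1. The share of all genes was not computed under these other rules, so the counts have no background beside them. Among genes of 10 CPM or more, the 75th percentile of coverage was 34.9% at 6h. It was 11.1% at 24h with flavopiridol, 42.3% at 6h with GSK126 and 5.76% for H2A.Z. In simulation 78% of 1.25-fold changes were recovered, which limits what 3 replicates show for small changes. Coverage values rest on 1 library each, so differences between conditions have no replicate check.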
